A study of Mus musculus with 12 samples.

Results

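The EGF family of growth factors and their ERBB receptors were followed in mpkCCD cells, a mouse cell line that originates from principal cells of the cortical collecting duct. The set has 10 genes chosen by name: the ligands Areg, Ereg, Hbegf, Tgfa, Btc and Epgn, the receptors Egfr, Erbb2 and Erbb3, and Errfi1, which codes for an inhibitor of the receptor kinases. Of these, 9 are described, out of 52015 genes in the whole table, and Areg is not analysed here. Of the 9, 8 reached 0.5 FPKM in at least 1 group, as did 13414 of all genes. FPKM, fragments per length of gene and number of mapped reads, is corrected for gene length, so that levels of different genes can be set side by side.

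RNA-seq libraries came from 12 cultures in 4 groups. Scr_300 and Scr_600 (2 libraries each) were mpkCCD cells transduced with a scramble guide RNA that has no target, and Nfat5-KO_300 and Nfat5-KO_600 (4 libraries each) were from clones N1 and N3, in which Nfat5 had been deleted with CRISPR/Cas9. Cells labelled 300 were grown for 5 days at 300 mosmol/kg (isotonic), and those labelled 600 for 5 days at 600 mosmol/kg (hypertonic), reached by adding 100 mM NaCl and 100 mM urea. The deposited table gives 1 value per gene and group and none per library. It therefore carries no replicate error: no SD, confidence interval or p-value could be calculated, the number of reads behind a value is unknown, and a group value can rest on some of its libraries or on 1 of the knockout clones. Differences are given as log2 ratios after 0.1 was added to each FPKM value, which makes the differences of weakly expressed genes look smaller. A gene was compared where either group reached 0.5 FPKM. A difference of 2-fold or more on this scale is a rule of size and not a test.

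Ligands of the EGF family are made as membrane proteins and released by metalloproteases, after which they bind ERBB receptors on the same or neighbouring cells. EGFR binds most of these ligands directly, ERBB2 has no known ligand of its own and acts as a partner of the other receptors, and ERBB3 binds neuregulins and signals with a partner because its own kinase has little activity. In the kidney, these receptors act in tubular repair after injury and in the handling of salts and magnesium.

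Nfat5, the targeted gene (chromosome 8, 107293470 to 107379517, plus strand), had 5.61 FPKM in Scr_300, 7.93 FPKM in Scr_600, and 3.47 FPKM at 300 and 6.88 FPKM at 600 mosmol/kg in Nfat5-KO cells. Its transcript was thus lower in the knockout at both osmolalities but still present, and the level of the transcript does not check whether the protein was lost. Of 13 principal cell markers, 7 reached 0.5 FPKM in at least 1 group, and the summed level of all 13, mostly Krt8 and Krt18, ranged from 787 to 1198 FPKM. Single markers moved with the genotype. Gata3, a transcription factor gene, had 3.41 FPKM in Scr_300, 4.33 FPKM in Scr_600, and 11.8 FPKM at 300 and 30.0 FPKM at 600 mosmol/kg in Nfat5-KO cells, and Hsd11b2, which codes for an enzyme that inactivates glucocorticoids, had 0.383, 0.655, 1.95 and 6.18 FPKM in the same order. Scnn1a, which codes for a subunit of the epithelial sodium channel, had 2.95, 1.31, 3.56 and 7.03 FPKM. Of the 7 markers compared between the genotypes, 2 were higher in the knockout by 2-fold or more at 300 mosmol/kg (Hsd11b2 and Gata3) and 3 at 600 mosmol/kg (with Scnn1a), and none was lower by that size. Of all genes compared, 1.73% were higher by that size at 300 and 3.76% at 600 mosmol/kg, and 2.44% and 3.68% were lower. Aqp2, the water channel that defines principal cells, was listed at 0 in Scr_300 and reached 0.245 FPKM in Scr_600, and Avpr2, the vasopressin receptor gene, was under 0.5 FPKM in every group as well. Markers of the other types were low. The summed level was 0.499 to 1.04 FPKM for 5 intercalated cell genes, of which Foxi1 and Atp6v0d2 were listed at 0 in every group, 0.0165 to 1.08 FPKM for 3 proximal tubule genes, 0.0448 to 0.0789 FPKM for 3 genes of the thick ascending limb and distal tubule, 0.0521 to 0.230 FPKM for 3 mesenchymal genes, 0.0240 to 0.0698 FPKM for 2 endothelial genes and 0.00494 to 0.0224 FPKM for Ptprc of leukocytes. The highest proximal tubule value was that of Lrp2, with 1.07 FPKM in Nfat5-KO_600. The part of these genes in the results was not tested, and in bulk RNA fewer cells of a type and less RNA per cell cannot be told apart.

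Btc and Tgfa were the ligands with higher levels in Nfat5-KO than in Scr cells at both osmolalities and over 0.5 FPKM everywhere, so the sequence just before their start sites is shown. For Btc these are the 250 bases at chr5:91402995-91403244 on the minus strand, and for Tgfa those at chr6:86194972-86195221 on the plus strand, both from RefSeq promoters of GRCm38.p6 and written 5′ to 3′. Capitals mark a short CRE motif (TGACG, or CGTCA on the other strand), the core of the element bound by CREB.
Btc: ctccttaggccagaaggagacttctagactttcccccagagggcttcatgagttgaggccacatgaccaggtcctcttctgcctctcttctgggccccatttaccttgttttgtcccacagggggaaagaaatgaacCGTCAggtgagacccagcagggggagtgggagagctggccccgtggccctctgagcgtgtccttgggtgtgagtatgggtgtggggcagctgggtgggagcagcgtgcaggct
Tgfa: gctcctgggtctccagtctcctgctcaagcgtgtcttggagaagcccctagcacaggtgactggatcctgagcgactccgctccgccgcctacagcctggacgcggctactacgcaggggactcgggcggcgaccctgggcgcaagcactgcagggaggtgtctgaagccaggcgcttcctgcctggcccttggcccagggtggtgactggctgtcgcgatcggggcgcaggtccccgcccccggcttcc
The GC content was 59.6% for Btc and 69.2% for Tgfa. Windows of this kind were at hand for 6 of the 9 genes (7 windows: Btc, Tgfa, Epgn, Egfr and Erbb2 with 1 each and Errfi1 with 2). Both strands were searched. None of the 7 held TGGAAA, the form of the NFAT core used here, which 18.6% of all 32851 windows of this length hold. None held the longer TonE element bound by NFAT5 (4.31% of all windows), which begins with the same 6 letters, or the AP-1 element TGANTCA (6.75%). The shorter run GGAAA, which the windows of Btc and Epgn and 1 window of Errfi1 hold, was not part of the search. The short CRE motif was in 4 of the 7, against 17.8% of all windows. A match is a run of letters and not a binding site, and a window without one says nothing about regions further away.

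The ligands were expressed at 2 levels. Tgfa and Hbegf, which code for transforming growth factor alpha and heparin-binding EGF-like growth factor, each lay between 6.08 and 9.33 FPKM, and together they made up the largest shares of the summed FPKM of the 5 ligands in each group. Tgfa took 47.1% of that sum in Scr_300 and 49.4% in Nfat5-KO_600, and Hbegf took 44.4% and 36.5%. Btc, Ereg and Epgn were lower, from 0.0741 to 2.04 FPKM. The summed ligand level was 15.4 FPKM in Scr_300, 14.4 FPKM in Scr_600, and 19.9 FPKM at 300 and 18.3 FPKM at 600 mosmol/kg in Nfat5-KO cells. Both knockout groups were above both Scr groups.

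**Figure D1:**
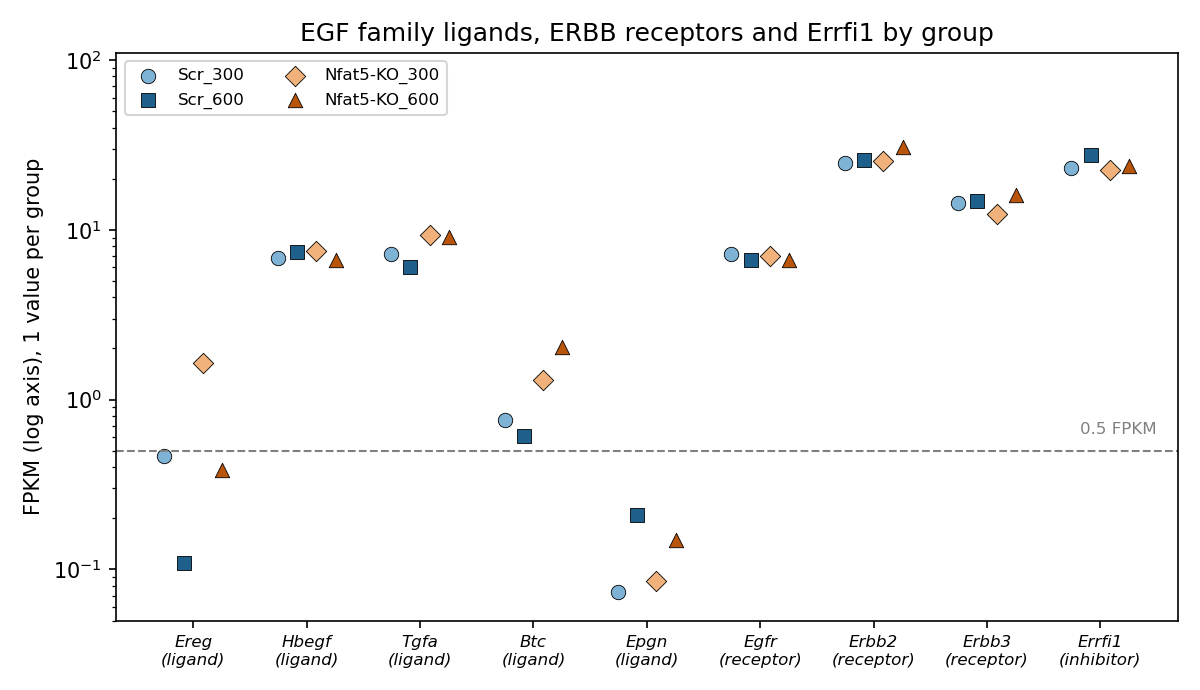
FPKM (log axis, 1 value per group) of the 9 genes in Scr_300, Scr_600, Nfat5-KO_300 and Nfat5-KO_600, with ligands at the left and receptors and the inhibitor at the right; the dashed line is 0.5 FPKM. The symbols of Ereg, Btc and Epgn are spread apart, while those of each receptor and of Errfi1 lie close together.

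Ereg codes for epiregulin, a ligand of EGFR and ERBB4, and lies on chromosome 5 from 91074622 to 91093646 on the plus strand. It had 0.464 FPKM in Scr_300, 0.109 FPKM in Scr_600, and 1.64 FPKM at 300 and 0.384 FPKM at 600 mosmol/kg in Nfat5-KO cells. Ereg was thus highest in isotonic knockout cells and lowest in hypertonic Scr cells. Its log2 ratio of Nfat5-KO_300 to Scr_300 was 1.62, and 65 of the 12704 genes compared (0.512%), Ereg included, were at least as much higher. Of all genes compared there, 4.17% differed 2-fold or more (1.73% higher in the knockout, 2.44% lower). Among the 8 members compared, Ereg was the 1 gene past this size.

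At 600 mosmol/kg Ereg was under 0.5 FPKM in both genotypes and was not among the genes compared. The ratio of its FPKM values without the added 0.1 was 3.53 between the genotypes at 300 mosmol/kg and 3.52 at 600 mosmol/kg. Between the osmolalities the ratio of FPKM at 600 to that at 300 mosmol/kg was 0.235 in Scr and 0.234 in Nfat5-KO cells. The group values of Ereg therefore stood in almost the same proportion in both genotypes. On the log2 scale with 0.1 added, the ratio of Nfat5-KO_600 to Nfat5-KO_300 was -1.84, and 83 of 12982 genes (0.639%) were at least as much lower. In that comparison 10.4% of all genes differed 2-fold or more (4.11% lower at 600 mosmol/kg, 6.25% higher). Ereg was the 1 member of 8 with a difference of this size.

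Btc codes for betacellulin, which binds EGFR and ERBB4, and lies on chromosome 5 from 91357261 to 91402994 on the minus strand. It had 0.759 FPKM in Scr_300, 0.609 FPKM in Scr_600, and 1.31 FPKM at 300 and 2.04 FPKM at 600 mosmol/kg in Nfat5-KO cells. Both knockout values were above both Scr values, and the highest was that of the hypertonic knockout. The log2 ratio of knockout to Scr was 0.72 at 300 mosmol/kg and 1.59 at 600 mosmol/kg. At 600 mosmol/kg, 160 of 13063 genes (1.22%) were at least as much higher as Btc, while 7.44% of all genes differed 2-fold or more (3.76% higher in the knockout, 3.68% lower). Btc was the 1 gene past this size among the 7 members compared. With 1 in place of 0.1 added to the FPKM values, neither Ereg nor Btc reached 2-fold in any comparison. The principal cell markers Gata3, Hsd11b2 and Scnn1a were, like Btc, highest in Nfat5-KO_600, with log2 ratios to Scr_600 of 2.77, 3.06 and 2.33. Krt8 and Krt18 were lowest there (-0.38 and -0.19), and Aqp3 and Cdh1 were highest in Nfat5-KO_300. The markers thus had no common direction, and their part in the values of Btc and Ereg was not tested.

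The osmolality went with opposite directions of Btc in the genotypes. Its log2 ratio of 600 to 300 mosmol/kg was -0.28 in Scr and 0.60 in Nfat5-KO cells, a difference of 0.88. Of 13414 genes, 671 (5.00%) had a difference at least as large in that direction. Ereg, by comparison, had log2 ratios of -1.43 and -1.84, the first from Scr values that were both under 0.5 FPKM. Without the added 0.1 its FPKM ratios were 0.235 and 0.234, so the gap between its log2 ratios comes from the added 0.1. No test of these differences between the genotypes could be made without values per library.

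Tgfa, on chromosome 6 from 86195223 to 86275719 on the plus strand, codes for a ligand that binds EGFR alone. It had 7.25 FPKM in Scr_300, 6.08 FPKM in Scr_600, and 9.33 FPKM at 300 and 9.03 FPKM at 600 mosmol/kg in Nfat5-KO cells. The knockout groups were again above the Scr groups, with log2 ratios of 0.36 (isotonic) and 0.56 (hypertonic). Among all genes, 13.4% and 10.4% were at least as much higher, so differences of this size were common. Hbegf, on chromosome 18 from 36504927 to 36515805 on the minus strand, had 6.83 FPKM in Scr_300, 7.36 FPKM in Scr_600, and 7.51 FPKM at 300 and 6.66 FPKM at 600 mosmol/kg in Nfat5-KO cells. Its 4 log2 ratios lay between -0.17 and 0.14 and had no common direction.

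Epgn codes for epigen, a further ligand of EGFR, on chromosome 5 from 91027464 to 91035215 on the plus strand. It was under 0.5 FPKM in every group and entered no comparison. It had 0.0741 FPKM in Scr_300, 0.209 FPKM in Scr_600, and 0.0849 FPKM at 300 and 0.150 FPKM at 600 mosmol/kg in Nfat5-KO cells. The value was higher at 600 mosmol/kg in both genotypes, the reverse of the order seen for Ereg, although values this low may rest on few reads.

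Erbb2 and Erbb3 had higher levels than any of the ligands, Egfr lay at the level of Tgfa and Hbegf, and none of the 3 receptors differed 2-fold or more in any comparison. Erbb2, on chromosome 11 from 98412470 to 98437716 on the plus strand, was the highest of them, with 24.8 FPKM in Scr_300, 25.8 FPKM in Scr_600, and 25.5 FPKM at 300 and 30.8 FPKM at 600 mosmol/kg in Nfat5-KO cells. It made up 53.4% to 57.6% of the summed level of the 3 receptors. Erbb3, on chromosome 10 from 128567523 to 128589652 on the minus strand, followed with 14.4 FPKM in Scr_300, 14.8 FPKM in Scr_600, and 12.4 FPKM at 300 and 16.0 FPKM at 600 mosmol/kg in Nfat5-KO cells. In knockout cells Erbb2 and Erbb3 were higher at 600 than at 300 mosmol/kg, by log2 ratios of 0.27 and 0.36, against 0.06 and 0.04 in Scr cells.

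Egfr, on chromosome 11 from 16752203 to 16918158 on the plus strand, was the lowest of the 3 receptors and had the narrowest range. It had 7.23 FPKM in Scr_300, 6.65 FPKM in Scr_600, and 7.03 FPKM at 300 and 6.60 FPKM at 600 mosmol/kg in Nfat5-KO cells. Its log2 ratio between the genotypes was -0.04 at 300 mosmol/kg and -0.01 at 600 mosmol/kg, and the second became 0.01 with median-of-ratios scaling. The summed receptor level was 46.4 FPKM in Scr_300, 47.2 FPKM in Scr_600, and 45.0 FPKM at 300 and 53.5 FPKM at 600 mosmol/kg in Nfat5-KO cells. Without a spread between libraries it cannot be said which of these orders exceed the replicate error.

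Errfi1, on chromosome 4 from 150853919 to 150868892 on the plus strand, codes for MIG6, a feedback inhibitor that binds the kinase domain of EGFR. It had 23.2 FPKM in Scr_300, 27.7 FPKM in Scr_600, and 22.5 FPKM at 300 and 23.7 FPKM at 600 mosmol/kg in Nfat5-KO cells, and was thus about as abundant as Erbb2. Scr_600 stood above the other groups, with a log2 ratio of 0.25 to Scr_300, and 23.6% of all genes compared were at least as much higher. None of the 7 members compared differed 2-fold or more between Scr_600 and Scr_300, where 7.67% of all genes did (4.81% higher at 600 mosmol/kg, 2.86% lower). Ereg could not enter because both values were under 0.5 FPKM.

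**Figure D2:**
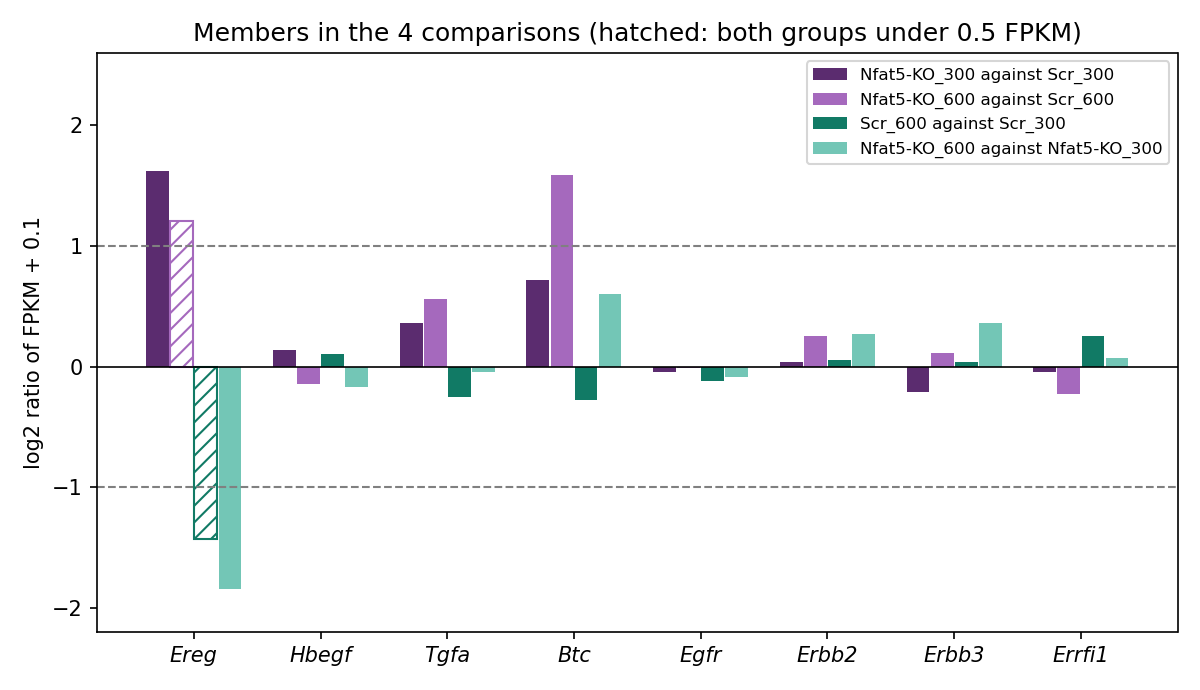
Log2 ratios of FPKM + 0.1 in the 4 comparisons for the 8 genes that reached 0.5 FPKM; dashed lines mark a 2-fold difference, and hatched bars mark comparisons with both groups under 0.5 FPKM. Ereg and Btc have the bars past the dashed lines, and among the other genes the longest bar is that of Tgfa at 600 mosmol/kg, at 0.56.

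Over the members compared, the median log2 ratio was 0.09 for Nfat5-KO_300 against Scr_300 (8 genes), 0.12 for Nfat5-KO_600 against Scr_600 (7 genes), 0.04 for Scr_600 against Scr_300 (7 genes) and 0.01 for Nfat5-KO_600 against Nfat5-KO_300 (8 genes). The medians of all genes compared were 0.00, -0.02, -0.04 and -0.04. With 8 or fewer genes, the share 2-fold or more different moves by over 12 percentage points with a single gene and is not read against the share of all genes. The comparisons share groups, as each group enters 1 comparison of the genotypes and 1 of the osmolalities.

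Epgn, Ereg, Areg and Btc are neighbours on chromosome 5, so the protein-coding genes within 500 kb of any of them were examined. The annotation holds 16 genes there, Epgn, Ereg, Areg and Btc included, and 15 of them, all but Areg, are given with values. The gene next to Btc on the far side from Ereg is Parm1, which codes for a mucin-like membrane protein and starts 115 kb beyond the end of Btc. Parm1 had 0.166 FPKM in Scr_300, 0.307 FPKM in Scr_600, and 0.572 FPKM at 300 and 2.18 FPKM at 600 mosmol/kg in Nfat5-KO cells. As with Btc, both knockout values exceeded both Scr values and the hypertonic knockout was highest, with log2 ratios of knockout to Scr of 1.34 at 300 and 2.48 at 600 mosmol/kg. On the other side, Mthfd2l, a mitochondrial enzyme of folate metabolism, adjoins Epgn. It had 4.66 FPKM in Scr_300, 4.98 FPKM in Scr_600, and 4.28 FPKM at 300 and 3.46 FPKM at 600 mosmol/kg in Nfat5-KO cells. Its log2 ratios of knockout to Scr were -0.12 at 300 and -0.51 at 600 mosmol/kg.

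Chemokine genes lie further on the same side, and in hypertonic cells the 4 of them that were compared had the opposite sign to Btc. Knockout to Scr at 600 mosmol/kg, the log2 ratio was -1.37 for Cxcl5, -2.26 for Ppbp, -1.83 for Cxcl1 and -2.08 for Cxcl2, all past 2-fold, while at 300 mosmol/kg the 4 ratios lay between -0.56 and 0.25. Rassf6, which codes for a Ras association domain protein, had ratios of -0.64 and -0.89, and 5830473C10Rik had ratios of 0.87 and 0.66. Afm, Pf4, Cxcl3 and Cxcl15 were at or under 0.183 FPKM in every group. Higher values in the knockout at both osmolalities were thus seen for Ereg, Btc, Parm1 and 5830473C10Rik and were not shared by the genes between 5830473C10Rik and Ereg. Of 10 genes compared at 300 mosmol/kg, 2 were higher by 2-fold or more (Ereg and Parm1), where 4.17% of all genes differed by that size. Of 9 compared at 600 mosmol/kg, 2 were higher (Btc and Parm1) and 4 lower by that size, where 7.44% of all genes differed so. These counts include Ereg and Btc, around which the region was drawn, so they are not read against the shares of all genes. Apart from Ereg and Btc, Parm1 was the 1 gene higher by that size at either osmolality. With 1 added in place of 0.1, the log2 ratio of Parm1 was 0.43 at 300 and 1.28 at 600 mosmol/kg, and the 4 chemokine genes stayed past 2-fold.

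**Figure D3:**
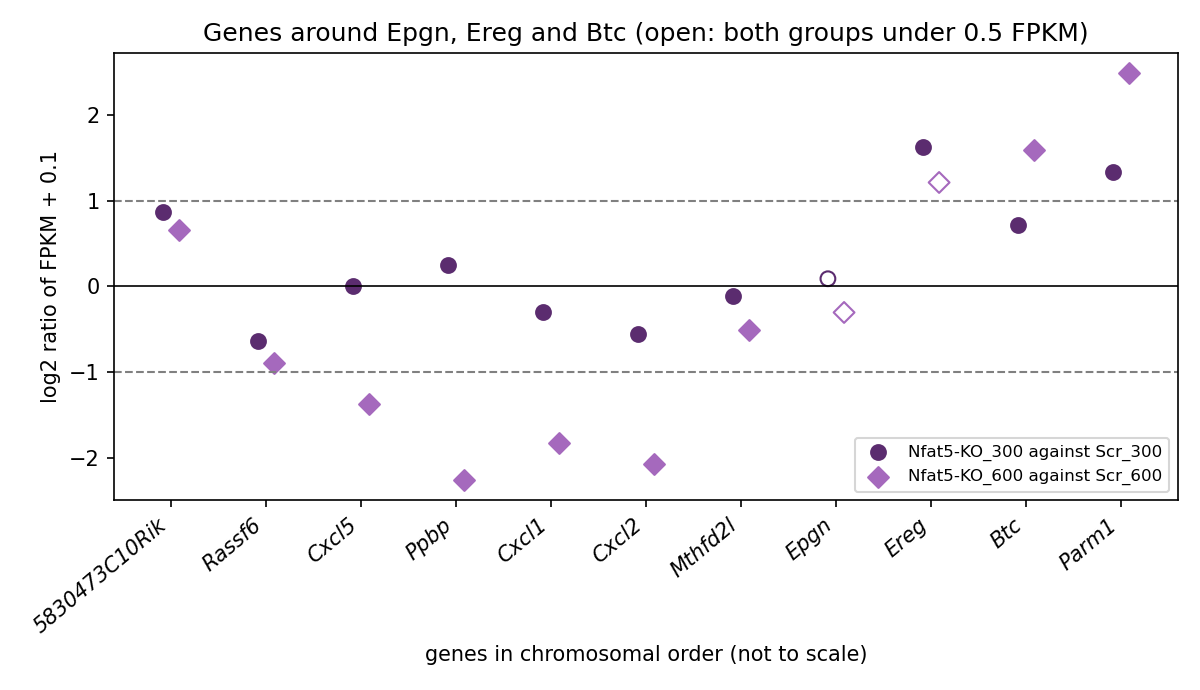
Log2 ratios of FPKM + 0.1, knockout to Scr, at 300 mosmol/kg (circles) and 600 mosmol/kg (diamonds) for the genes around Epgn, Ereg and Btc in their order on the chromosome; dashed lines mark a 2-fold difference, and open symbols mark comparisons with both groups under 0.5 FPKM. Genes under 0.5 FPKM in every group, other than Epgn, are not drawn. Cxcl5, Ppbp, Cxcl1 and Cxcl2 lie below -1 at 600 mosmol/kg, and Ereg, Btc and Parm1 lie above 0 at both osmolalities.

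Profiles over the 4 groups were compared with those of Ereg and Btc, the members with the widest range. Likeness was the Euclidean distance between log2 values of FPKM + 0.1 after the mean of each gene was removed, over 4 group values and 13413 other genes. Those most like Ereg were Gm24474 (distance 0.21), mt-Te (0.22), which codes for a mitochondrial tRNA, the kallikrein gene Klk10 (0.44) and the keratin genes Krt20 (0.46) and Krt14 (0.47). Klk10 had 2.37 FPKM in Scr_300, 0.994 FPKM in Scr_600, and 10.4 FPKM at 300 and 3.05 FPKM at 600 mosmol/kg in Nfat5-KO cells. Those most like Btc were Gm5698 (0.04), Asap2 (0.07), which codes for a GTPase-activating protein of ARF proteins, 1700003E16Rik (0.10), Padi1 (0.14), a peptidylarginine deiminase gene, and 9230114K14Rik (0.15). Asap2 had 2.97 FPKM in Scr_300, 2.50 FPKM in Scr_600, and 4.77 FPKM at 300 and 7.41 FPKM at 600 mosmol/kg in Nfat5-KO cells. With 4 values per gene many profiles lie close to each other.

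Other genes of the family were mostly low. Of 6 listed, Nrg2, a neuregulin gene, was the 1 gene compared, with 1.10 to 1.28 FPKM and log2 ratios between -0.07 and 0.21. Egf and Nrg4 were at or under 0.185 FPKM, Nrg3 and Erbb4 were listed at 0 in every group, and Nrg1 was left out because its symbol has rows with different values. Of 6 genes listed for the control of ligand release, all but Timp3 reached 0.5 FPKM. None of the 5 compared was 2-fold or more different in any of the 4 comparisons. Of all genes, 4.17% to 10.4% were, a share at which few of 5 genes would be. Adam17, the main protease that sheds Tgfa and Hbegf, had 22.7 to 24.8 FPKM, and Adam10, which sheds Btc, had 19.2 to 22.8 FPKM. Furin, a proprotein convertase that activates both proteases, had the widest range, from 7.77 FPKM in Nfat5-KO_300 to 14.6 FPKM in Scr_600. Rhbdf1, which helps Adam17 to mature, had 8.77 to 11.1 FPKM.

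Of 11 genes listed as negative regulators of the receptors, 10 were compared. None was 2-fold or more different in any comparison, where 4.17% to 10.4% of all genes were. At 600 mosmol/kg 9 of the 10 were higher in knockout than in Scr cells, against 47.8% of all genes. The median log2 ratio was 0.21 against -0.02 for all genes. At 300 mosmol/kg 7 of 10 were higher (49.8% of all genes), with a median of 0.16 against -0.0015. Lrig1, a membrane protein that promotes the degradation of ERBB receptors, had 10.2 FPKM in Scr_300 and 12.2 FPKM in Nfat5-KO_300, a log2 ratio of 0.25. Ptpn1, a tyrosine phosphatase that acts on EGFR, had 19.9 and 24.1 FPKM in the same groups, a log2 ratio of 0.27. Ptpn2, a related phosphatase, had a ratio of 0.09, and Zfand5 one of -0.19. At 600 mosmol/kg the log2 ratios of knockout to Scr were 0.17 for Lrig1, 0.11 for Ptpn1 and 0.10 for Ptpn2. Zfand5 was also the 1 gene of the 10 that was lower at 600 mosmol/kg (-0.28). Whether each listed gene, Zfand5 among them, acts on ERBB receptors was not tested.

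All 25 adaptors and kinases listed were compared, and none was 2-fold or more different in a comparison, where 4.17% to 10.4% of all genes were. In both comparisons of the genotypes 17 of the 25 were higher in the knockout, against 49.8% and 47.8% of all genes. The median log2 ratio was 0.12 at 300 and 0.10 at 600 mosmol/kg (-0.0015 and -0.02 for all genes). Akt1, a kinase of the PI3K pathway, was the highest of them with 63.2 FPKM in Scr_300 and 83.8 FPKM in Nfat5-KO_300, a log2 ratio of 0.41. At 600 mosmol/kg Akt1 had 68.0 FPKM in Scr and 75.1 FPKM in Nfat5-KO cells, a log2 ratio of 0.14. Ptpn11, which codes for the phosphatase SHP2, had 47.3 to 53.6 FPKM, and the adaptor Grb2 had 35.5 to 41.1 FPKM. Shc1, chosen after its values were seen, codes for an adaptor that binds activated EGFR and had log2 ratios of knockout to Scr of 0.62 at 300 and 0.67 at 600 mosmol/kg.

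Of 22 genes that respond to ERK signalling, 20 were compared. Of these 20, 3 differed by 2-fold or more between the genotypes at 300 mosmol/kg (4.17% of all genes) and 3 at 600 mosmol/kg (7.44% of all genes). Between the osmolalities 2 did in Scr (7.67% of all genes), a share near that of all genes, and 4 in Nfat5-KO cells (10.4% of all genes). With 1 added in place of 0.1, the 4 numbers were 2, 2, 1 and 3. At 600 against 300 mosmol/kg in knockout cells 16 of the 20 were lower, and the median log2 ratio was -0.55 against -0.04 for all genes. In Scr cells 13 of the 20 were lower, with a median of -0.23 against -0.04 for all genes. Higher at 600 than at 300 mosmol/kg were 47.1% of all genes in knockout and 45.4% in Scr cells. Of the 20, 4 were lower by 2-fold or more in the knockout (Fosl1, Ier3, Dusp5 and Etv4) and none higher by 2-fold or more. With median-of-ratios scaling the number past that size was 2, and with 1 added the ratio of Etv4 was -0.97. Fosl1, which codes for an AP-1 subunit, had 3.91 FPKM in Scr_300, 2.78 FPKM in Scr_600, and 11.5 FPKM at 300 and 3.46 FPKM at 600 mosmol/kg in Nfat5-KO cells. Dusp5, a phosphatase of ERK, had 5.91, 2.69, 12.6 and 4.45 FPKM in the same order. Like Ereg, both were at their highest in isotonic knockout cells.

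Between the genotypes Fosl1 and Dusp5 were higher by 2-fold or more and Egr1, an early response transcription factor, lower by 2-fold or more in Nfat5-KO_300, with log2 ratios of 1.53, 1.08 and -1.93, of which that of Dusp5 became 0.97 with 1 added. At 600 mosmol/kg Dusp4, a phosphatase of MAP kinases, was higher by 2-fold or more (1.04, or 0.95 with 1 added), and Egr1 (-2.94) and Dusp6 (-2.50) were lower by 2-fold or more. Dusp6, a phosphatase of ERK, had 10.2 FPKM in Scr_300, 58.7 FPKM in Scr_600, and 7.70 FPKM at 300 and 10.3 FPKM at 600 mosmol/kg in Nfat5-KO cells, so that its value in Scr_600 stood apart from the other groups. It was the 1 gene of the list that was higher by 2-fold or more in Scr_600 than in Scr_300, and Dusp5 was the 1 gene lower by 2-fold or more (log2 ratio -1.11, or -0.91 with 1 added). Egr1 had 8.68 FPKM in Scr_300, 11.0 FPKM in Scr_600, and 2.20 FPKM at 300 and 1.35 FPKM at 600 mosmol/kg in Nfat5-KO cells. Among the abundant genes of the list, the log2 ratio of Nfat5-KO_600 to Nfat5-KO_300 was -0.25 for Junb, -0.50 for Ier2, -0.71 for Myc and -0.75 for Plaur. That of Scr_600 to Scr_300 was 0.60 for Junb, -0.51 for Ier2, -0.36 for Myc and 0.43 for Plaur.

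**Figure D4:**
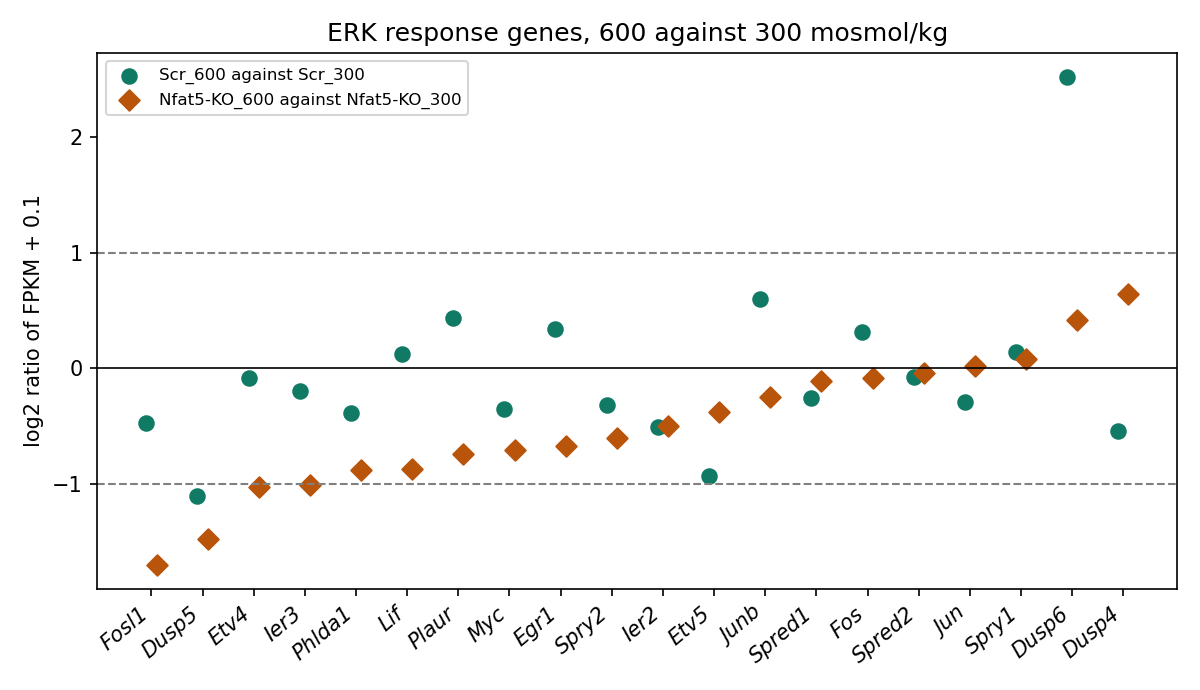
Log2 ratios of FPKM + 0.1 at 600 against 300 mosmol/kg in Scr (circles) and Nfat5-KO cells (diamonds) for 20 genes that respond to ERK signalling, ordered by the value in knockout cells; dashed lines mark a 2-fold difference. Most diamonds lie below 0, and Dusp6 stands apart in Scr cells at 2.52.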

How the data were processed

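RNA-seq was carried out on 12 cultures of mpkCCD cells. After the authors had discarded low-quality and adapter reads, HISAT2 was used for mapping to GRCm38/mm10 and HTSeq for counting (versions not given in the sources used here). The deposited FPKM values are 1 per gene and group, taken here as the authors' mean; how libraries were combined is not stated. Of 54839 rows, 2436 without a value or name and 311 exact duplicates were removed, and 37 symbols with different rows were left out. Reads that antisense or overlapping genes share cannot be told apart. Log2 ratios of FPKM + 0.1 were computed with Python 3.11.15, numpy 2.4.6 and pandas 2.3.3, and the steps were tested on simulated data. No test was possible with 1 value per group. Positions and gene types come from GENCODE M21 (GRCm38), promoters from RefSeq (GRCm38.p6). Summed FPKM per group ranged from 212247 to 253756 over the genes used; these are not reads, and depth is unknown. The members, lists, motifs and the rule for named genes (members, genes of the lists at least 2-fold different or among the 4 highest, all neighbours, and the 5 most alike profiles) were chosen with earlier results of these data known. The values of 1 gene that this rule names are not reported here. As alternatives, the pseudocount was set to 1 or 0.01, the filter was dropped or replaced by a mean of 1 FPKM, the fold was set to 1.5, and median-of-ratios scaling was applied.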

Additional observations from a re-analysis of the deposited data

How the results depend on the processing

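With a pseudocount of 1, 0 members were at least 2-fold different in each of the 4 comparisons, since the log2 ratio of Ereg became 0.85 (Nfat5-KO_300 against Scr_300) and -0.93 (Nfat5-KO_600 against Nfat5-KO_300) and that of Btc 0.92 (Nfat5-KO_600 against Scr_600). Without a filter on low values, Ereg entered every comparison, which gave 2 members for Nfat5-KO_600 against Scr_600 and 1 for Scr_600 against Scr_300. A fold of at least 1.5 added Btc to Ereg and gave 2 members each for Nfat5-KO_300 against Scr_300 and Nfat5-KO_600 against Nfat5-KO_300. The other 17 of 24 such counts differed by no more than 1.5 times. With the whole table, the pseudocount of 1 lowered the share of genes at least 2-fold different from 4.17% to 1.06% at 300 mosmol/kg and from 7.44% to 2.59% at 600 mosmol/kg between the genotypes. No log2 ratio of a member that was at least 2-fold changed sign. Of 108 recomputed ratios of members, 2 changed sign, both with median-of-ratios scaling: Egfr in Nfat5-KO_600 against Scr_600 (0.01) and Tgfa in Nfat5-KO_600 against Nfat5-KO_300 (0.03). Of the genes that respond to ERK signalling, the pseudocount of 1 left 2, 2, 1 and 3 past 2-fold in the 4 comparisons, against 3, 3, 2 and 4. No paired analysis was possible because the table holds 1 value per group, and for the same reason no replicate could be left out. The unknown depth limits Ereg and Epgn most, whose lowest values were 0.109 and 0.0741 FPKM.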
